A study of Mus musculus with 9 samples.

Results

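Serpins are protease inhibitors, and this account follows all genes of the family in ear tissue of C57 mice. The members are the rows of the count matrix whose Ensembl identifier carries a mouse symbol of the Serpina to Serpini clades in GENCODE M21. Of 68 such rows, 7 were pseudogenes and were left out, which gave 61 members among 55401 rows: 24 in clade A, 26 in clade B and 11 in clades C to I. The 9 libraries fall into 3 groups of 3. Ears given absolute ethyl alcohol were the control. A second set of ears received MC903 (calcipotriol), a vitamin D analogue that produces an eczema-like inflammation of mouse skin. The last group received MC903 together with paeonol, a phenolic compound known from peonies, in a dose of 200 mg/kg. The labels give no age, sex or route, name no vehicle for paeonol, and list no group with paeonol alone.

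A typical serpin presents an exposed loop to a protease, is cut, and traps the enzyme in an irreversible complex, so each molecule is used once. Clade A members are mostly secreted plasma-type inhibitors, whereas clade B members lack a classical signal peptide and act largely inside cells. In the epidermis several clade B serpins restrain the kallikreins, cathepsins and other proteases that govern shedding and barrier formation. Some members inhibit nothing, among them the collagen chaperone Serpinh1, the growth regulator Serpinf1 and the epithelial tumour suppressor Serpinb5 (maspin).

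Library totals were 54264605 to 57745225 estimated counts, and the members held 0.212% to 0.27% of them. Values are given on the counts-per-million scale (CPM), relative to the TMM-adjusted library size, in library order 1 to 3 of each group. Changes are log2 fold changes ± standard error from 1 edgeR quasi-likelihood fit of all 9 libraries and 21925 genes. Calls rest on a Benjamini-Hochberg adjusted p under 0.05, adjusted over every gene in the fit. Nothing in the labels ties each library to its own animal. The p-values therefore reflect variation among these libraries alone, which may be technical. The comparisons share libraries, since each group enters 2 of the 3. Their changes are therefore set side by side and not correlated. All libraries hold RNA of many cell types, and fewer cells of a type cannot be told apart from less RNA per cell.

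Of the 61 members, 46 passed the expression filter and were tested, and 32 had a mean of at least 1 CPM over the 9 libraries, of which 31 are described by value. The 15 that did not pass had 0 to 16 counts in every library, and 6 of them had none at all: Serpina16, Serpina7, Serpinb9c, Serpinb9e, Serpinb9g and Serpini2. The other 9 were Serpina6 (corticosteroid-binding globulin), Serpina5 (protein C inhibitor), Serpina1f, Serpina3a, Serpina3k, Serpinb6e, Serpinb9d, Serpinb9f and Serpine3. Counts of changed members below refer to those tested, not to all 61.

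Levels of different genes can be compared only per exon length, for which counts were put on the transcripts-per-million scale (TPM) with GENCODE exon lengths. In control ears the highest levels were those of Serpinb3b (414 ± 7.74 TPM, SD, n = 3) and Serpinb5 (315 ± 43.5 TPM). Serpinb2 (218 ± 32.7 TPM) and Serping1 (209.8 ± 35.8 TPM) came next, and only the last 2 of these overlapped. In MC903 ears Serpinb5 led with 412 ± 14.1 TPM, and Serpina3n, in the tenth place in control ears with 84.6 ± 15.2 TPM, was the second with 268 ± 22.6 TPM, which overlapped the 240.3 ± 34.7 TPM of Serpinb2. Serpinb3b then stood at 166 ± 12.3 TPM, in the fifth place. With paeonol the order was Serpinb5 (615 ± 17.96 TPM), Serpinb3b (516 ± 18.9 TPM) and Serpinb2 (324 ± 21.1 TPM), and these levels did not overlap. The family as a whole summed to 2394 ± 153 TPM in control, 2053 ± 37.3 in MC903 and 2763 ± 63.4 with paeonol. Clade A was at its highest in MC903, with 281 ± 33.7, 499 ± 32.3 and 309.5 ± 36.03 TPM in the 3 groups. On this scale clade B was at its lowest in MC903, with 1519.7 ± 137, 1189 ± 45.8 and 2147 ± 48.4 TPM. The other clades were at 593 ± 70.8, 365 ± 31.2 and 307 ± 52.9 TPM, of which the MC903 and paeonol values overlapped. These sums are descriptions, without a test, and they depend on the scale. Summed as TMM-adjusted CPM, without exon length, the means of clade B and of the family were higher in MC903 than in control. TPM values carry no TMM adjustment, and the TMM factors were 1.08 to 1.09 in control and 0.942 to 0.957 in MC903. As a share of all counts, not per length, the members held 0.212% to 0.235% in control and 0.224% to 0.232% in MC903, which overlapped. With paeonol that share was 0.260% to 0.270%.

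**Figure D1:**
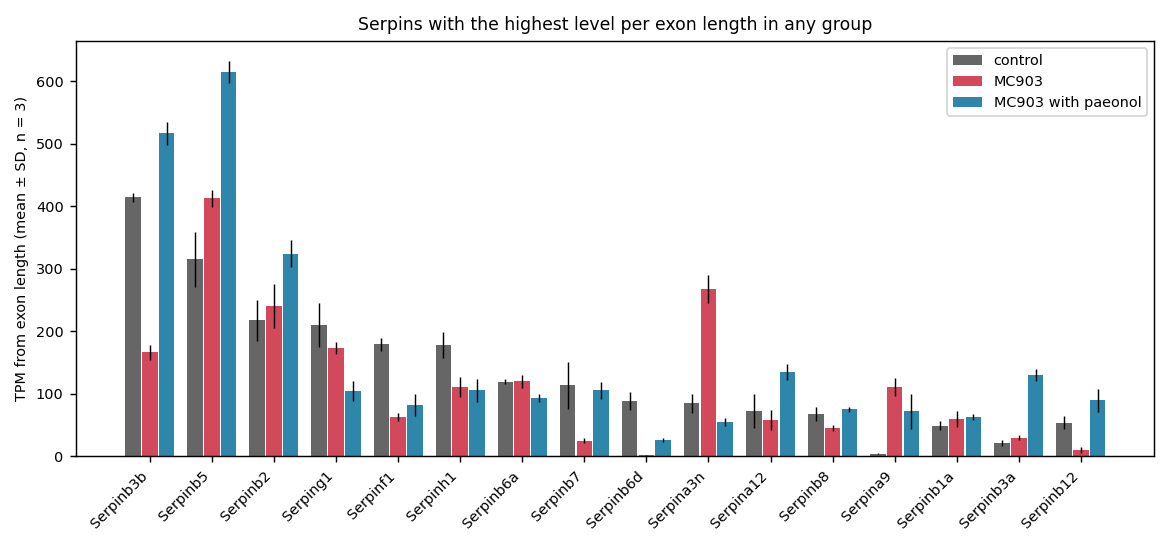
Level per exon length (TPM, vertical axis) of the 16 serpins that were among the 12 highest in any group; bars are means and lines the SD of 3 libraries. Serpinb3b is lowest and Serpina3n highest in MC903, and Serpinb5 is highest with paeonol.

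Against control, MC903 ears had 13 serpins higher and 12 lower of 46 tested, with 21 not called. The background was 46.8% of all 21925 genes called, 23.0% higher and 23.8% lower, against 25 of the 46 serpins. The median log2 change was 0.37, against -0.02 over all genes, and the groups did not overlap for 30 of the 46, against 58.1% of all genes. The changes ran from -8.38 to 7.98, with a median size of 0.836 against 0.495 over all genes. Ears given paeonol with MC903 had 13 serpins higher and 10 lower than ears given MC903 alone, 23 of 46. Of all genes 29.7% were called in this comparison, 15.3% higher and 14.3% lower, and 43.9% had groups without overlap, against 30 of the 46 serpins. Against control, the paeonol group had 14 serpins higher and 12 lower, 26 of 46, where 30.9% of all genes were called (16.3% higher, 14.5% lower). The groups did not overlap for 31 of the 46, against 46.4% of all genes. Scaling by library totals alone moved the median of all genes in MC903 versus control to -0.205, and the split of called serpins to 10 higher and 14 lower (3402 and 7224 of all genes, against 5044 and 5215). For paeonol versus control the split became 11 and 13 (2155 and 5354 of all genes, against 3578 and 3187).

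**Figure D2:**
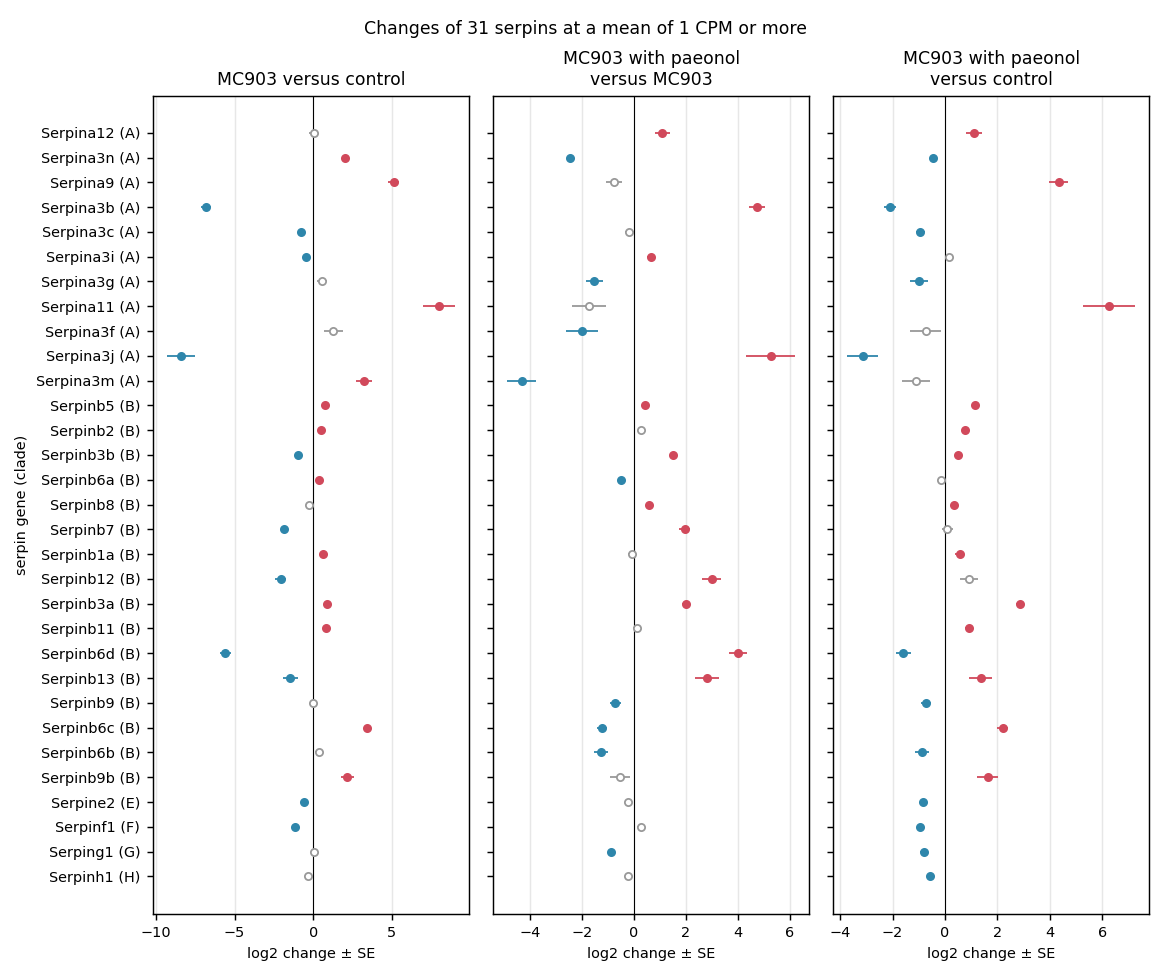
Log2 change ± SE (horizontal axis) of 31 serpins at a mean of 1 CPM or more, in the 3 comparisons; red points were called higher, blue points lower, and open grey points were not called. Serpina3b, Serpina3j and Serpinb6d lie far left in the first panel and far right in the second, while Serpina9 and Serpina11 lie right in both comparisons with control.

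The Serpina3 genes, copies related to human alpha-1-antichymotrypsin that lie side by side on chromosome 12, went opposite ways. Of 10 members 8 were tested; in MC903 versus control 2 were higher and 4 lower, and with paeonol versus MC903 3 were higher and 4 lower. With paeonol versus control 0 were higher, also at an unadjusted p under 0.05 by edgeR or DESeq2, and 5 lower. Of all genes, 23.0% were called higher and 23.8% lower in the first comparison. The shares were 15.3% and 14.3% in the second, and 16.3% and 14.5% in the last. Serpina3n, a secreted inhibitor of granzyme B and leukocyte elastase (GRCm38 chromosome 12, 104406729 to 104414329), stood at 54.3, 72.2 and 53.96 CPM in control ears. It reached 222, 239 and 261 CPM in MC903 ears and 46.3, 46.3 and 39.3 CPM with paeonol. All MC903 libraries lay above all others, and the paeonol libraries lay just below the control libraries. The log2 change was 2.0 ± 0.12 with MC903 (edgeR adjusted p = 7.41e-07), -2.45 ± 0.12 for paeonol versus MC903 (1.35e-06 as edgeR adjusted p) and -0.45 ± 0.12 for paeonol versus control (0.01397 as edgeR adjusted p). The last call ended without paeonol library 3 (log2 change -0.38, edgeR adjusted p = 0.0559). Serpina3m was also higher in MC903 and lower with paeonol, at 0.672, 1.08 and 0.2197 CPM in control, 6.05, 6.23 and 6.32 in MC903 and 0.371, 0.129 and 0.422 with paeonol, log2 changes of 3.23 ± 0.5 and -4.33 ± 0.54 in the first and second comparison. Its difference from control with paeonol (-1.1 ± 0.53) was not called, except without control library 3 (log2 change -1.51, edgeR adjusted p = 0.0243).

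Serpina3b and Serpina3j were nearly absent in MC903 ears and partly present with paeonol. Serpina3b (chromosome 12, 104127996 to 104139545) was at 29.6, 55.8 and 54.2 CPM in control, 0.4502, 0.499 and 0.272 in MC903 and 10.95, 9.61 and 11.8 with paeonol. The 3 groups did not overlap, and the paeonol group stood between the others, with a log2 change of -2.11 ± 0.24 from control (edgeR adjusted p = 2.11e-04). Serpina3j (chromosome 12, 104314553 to 104320725) had 276, 562 and 434 estimated counts in control, 0, 3 and 0 in MC903 and 39, 16 and 73 with paeonol. The ratio of control to MC903 was 372 (95% counting interval 49.7 to 11058) and that of paeonol to MC903 41.96 (95% counting interval 5.26 to 1281); these intervals take 4 counts as 1 fragment and cover counting error only. With paeonol it was still lower than in control ears, by a log2 change of -3.14 ± 0.58.

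The remaining tested copies were Serpina3c, Serpina3i, Serpina3g and Serpina3f. Serpina3c fell with MC903 (-0.76 ± 0.17, edgeR adjusted p = 0.00328), from 11.3, 14.2 and 11.7 CPM to 8.16, 5.73 and 8.08 CPM. It stood at 6.11, 5.98 and 7.29 CPM with paeonol, which did not differ by the test from MC903 alone (-0.18 ± 0.17). Serpina3i was at 8.77, 10.8 and 7.81 CPM in control, 6.401, 5.64 and 7.44 in MC903 and 11.02, 9.72 and 9.72 with paeonol, a fall (-0.49 ± 0.16) and then a higher level (0.64 ± 0.16). Its fall was not called without control library 2 or MC903 library 1 or 2 (log2 change -0.48 to -0.35, edgeR adjusted p between 0.0653 and 0.118). Serpina3g (Spi2A), an inhibitor of cathepsins inside leukocytes, was at 7.19, 12.5 and 5.56 CPM in control, 9.67, 11.6 and 15.2 in MC903 and 5.86, 3.43 and 3.37 with paeonol. It was lower with paeonol than in MC903 (-1.53 ± 0.33, edgeR adjusted p = 0.00668), and the change with MC903 (0.53 ± 0.32) was called only without control library 2 (log2 change 0.93, edgeR adjusted p = 0.02196). Its difference between paeonol and control (-0.99 ± 0.33) was not called without control library 1 or 2, MC903 library 1 or 2 or paeonol library 2 or 3 (log2 change -1.1 to -0.59, edgeR adjusted p between 0.0521 and 0.154). That call also ended in the fit of the 2 groups alone (edgeR adjusted p = 0.06001) and with no filter (0.0743 as edgeR adjusted p). Serpina3f, at 1.18, 5.35 and 0.913 CPM in control, 5.74, 4.51 and 7.68 in MC903 and 1.31, 1.46 and 1.69 with paeonol, was lower with paeonol than in MC903 (-2.01 ± 0.62), a call lost without MC903 library 1, 2 or 3 or paeonol library 1, 2 or 3 (log2 change -2.18 to -1.79, edgeR adjusted p between 0.0566 and 0.126) or with no filter (0.0785 as edgeR adjusted p). Control library 2 held the highest control value of all 8 tested Serpina3 members. Without it the MC903 change of Serpina3f was called (2.51, edgeR adjusted p = 1.06e-04), against 1.27 ± 0.6 and 0.115 as edgeR adjusted p with it. DESeq2 called that change with all 9 libraries (1.28, DESeq2 adjusted p = 0.0328).

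These copies are similar, so reads can be split between them. Of all 75-base stretches of their transcripts, 9.65% in Serpina3m, 7.69% in Serpina3g, 6.62% in Serpina3i and 5.33% in Serpina3f also occur in another serpin. The share is 1.46% in Serpina3n and 0.327% in Serpina3c, 0.1503% in Serpina3b and 0.144% in Serpina3j. Serpina3m and Serpina3k also overlap in their exons on the same strand by 60 bases. Serpina3h, which GENCODE lists as a transcribed pseudogene and which is no member here, lies between Serpina3g and Serpina3i. It was at 90, 73.9 and 83.5 CPM in control, 13.7, 12.6 and 18.4 in MC903 and 57.3, 46.5 and 53.5 with paeonol.

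The start regions of the Serpina3 genes are shown because Serpina3n and Serpina3c, of the same cluster but not adjacent, have similar sequence there and changed differently. RefSeq windows of 300 bases (build GRCm38.p6, 250 bases before and 50 after each start) were matched by symbol for 52 of the 61 members. Those of Serpina3n and Serpina3c are 89.9% identical in a global alignment (275 of 306 columns). Serpina3n was 4.002-fold higher in MC903 ears and Serpina3c 1.69-fold lower. Capitals in this pair mark the bases that differ from the partner.
Serpina3n (chr12:104406458-104406757, plus strand): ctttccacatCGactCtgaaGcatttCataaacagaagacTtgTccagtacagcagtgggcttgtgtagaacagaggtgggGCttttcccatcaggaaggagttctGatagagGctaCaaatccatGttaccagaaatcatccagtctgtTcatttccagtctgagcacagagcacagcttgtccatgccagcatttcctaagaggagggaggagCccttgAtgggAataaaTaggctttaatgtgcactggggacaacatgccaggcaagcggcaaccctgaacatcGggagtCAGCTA
Serpina3c (chr12:104153823-104154122, minus strand): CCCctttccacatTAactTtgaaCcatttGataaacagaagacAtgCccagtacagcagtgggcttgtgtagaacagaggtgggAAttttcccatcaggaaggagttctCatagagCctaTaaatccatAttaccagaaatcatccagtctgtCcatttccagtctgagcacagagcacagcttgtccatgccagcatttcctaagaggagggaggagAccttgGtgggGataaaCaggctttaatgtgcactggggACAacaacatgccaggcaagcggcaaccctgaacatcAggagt
The window of Serpina3b, 68.9% identical to that of Serpina3n and 65.2% to that of Serpina3c, holds the letters TATAAA on its own strand starting 28 bases before the start site, in capitals here. The same letters begin at position -29 from the start in Serpina3a and at -132 in Serpina3c.
Serpina3b (chr12:104127746-104128045, plus strand): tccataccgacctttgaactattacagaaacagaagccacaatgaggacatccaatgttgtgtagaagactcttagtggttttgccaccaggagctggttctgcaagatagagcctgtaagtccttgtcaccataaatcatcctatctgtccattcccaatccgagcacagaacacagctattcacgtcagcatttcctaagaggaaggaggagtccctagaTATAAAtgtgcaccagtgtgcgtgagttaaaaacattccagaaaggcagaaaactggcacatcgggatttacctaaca
Serpina3g and Serpina3i both hold a match to TTCNNNGAA, the palindrome that STAT factors are known to bind, in capitals here. It begins 33 bases before the start in Serpina3g and 102 before it in Serpina3i. Serpina3f holds a match too, a single site at position -121 from the start in 1 of its overlapping windows and at -210 in the other.
Serpina3g (chr12:104235897-104236196, plus strand): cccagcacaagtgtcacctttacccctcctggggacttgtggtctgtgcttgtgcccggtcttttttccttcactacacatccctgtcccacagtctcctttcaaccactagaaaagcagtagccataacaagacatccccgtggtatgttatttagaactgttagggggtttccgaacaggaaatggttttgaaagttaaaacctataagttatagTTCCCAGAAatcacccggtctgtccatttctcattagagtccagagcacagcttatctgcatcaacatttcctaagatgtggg
Serpina3i (chr12:104262872-104263171, plus strand): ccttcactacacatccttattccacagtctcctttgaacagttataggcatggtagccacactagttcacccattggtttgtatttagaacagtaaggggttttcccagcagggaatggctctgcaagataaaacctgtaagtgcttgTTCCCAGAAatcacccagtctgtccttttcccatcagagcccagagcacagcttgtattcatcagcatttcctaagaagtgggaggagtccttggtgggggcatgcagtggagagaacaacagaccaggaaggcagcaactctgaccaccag
With paeonol versus MC903 Serpina3g was lower (-1.53) and Serpina3i higher (0.64). Searched on both strands, TTCNNNGAA occurs in 11 of the 61 member windows (18%; some genes have more than 1 start) and in 8.3% of all 32851 windows of this length. TATAAA occurs in 18 of the 61 and in 13.6% of all windows. A site in overlapping windows of a gene, as in Serpina11, Serpina3f and Serpinb2, is counted in each window, so these are not counts of genes. A match describes letters and not binding.

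On the same chromosome, Serpina9 and Serpina11 were higher in both treated groups than in control. Serpina9 (centerin), known from germinal centre B cells (chromosome 12, 103994743 to 104013755), was at 4.42, 6.07 and 5.04 CPM in control ears, 161, 169 and 202 in MC903 ears and 63.7, 96.4 and 153 with paeonol. Every treated library lay above every control library. The log2 change from control was 5.1 ± 0.36 with MC903 (edgeR adjusted p = 2.74e-05) and 4.33 ± 0.35 with paeonol (1.94e-04 as edgeR adjusted p). The paeonol libraries were all below the MC903 libraries, but the difference of -0.76 ± 0.3 was not called (edgeR adjusted p = 0.105). It was called without paeonol library 3 (log2 change -1.15, edgeR adjusted p = 0.00501). Its neighbour Serpina11 had 0, 0 and 9 estimated counts in control, 585, 601 and 914 in MC903 and 85, 177 and 365 with paeonol. The ratio to control was 266 (95% counting interval 82.4 to 2476) in MC903 and 78.1 (95% counting interval 23.9 to 733) with paeonol. Between paeonol and MC903 the change of -1.74 ± 0.66 was not called, except without paeonol library 3 (log2 change -2.45, edgeR adjusted p = 0.0325) and with counts divided by 4 (0.0209 as edgeR adjusted p). Gm28577, listed as a processed transcript in GENCODE, overlaps the exons of both on the same strand, by 669 bases in Serpina11 and 72 in Serpina9, so their counts are uncertain to that extent.

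Serpina12 (vaspin), an adipokine that inhibits kallikrein 7, was higher in the paeonol group than in both others. Its values were 129.5, 74.97 and 69.7 CPM in control and 121, 85.5 and 71.3 in MC903, which overlapped, and 183, 182 and 226 with paeonol, above all other libraries. The log2 change was 1.09 ± 0.29 versus MC903 (edgeR adjusted p = 0.0282) and 1.11 ± 0.29 versus control (0.0256 as edgeR adjusted p). The first of these calls was lost without MC903 library 2 or 3 or paeonol library 1, 2 or 3 (log2 change 0.93 to 1.14, edgeR adjusted p between 0.0569 and 0.0902), and the second without control library 2 or 3 or paeonol library 1, 2 or 3 (log2 change 0.94 to 1.17, edgeR adjusted p between 0.0513 and 0.0931). With no filter both ended (edgeR adjusted p = 0.0593 and 0.0544). Adipocyte markers, with which vaspin is often grouped, summed to 235 to 318 CPM in control, 118 to 158 in MC903 and 113 to 147 with paeonol. All 6 markers were called lower than control in both treated groups. Between paeonol and MC903, 4 were higher and 1 lower, with a median log2 change of 1.22, and their part in the values of Serpina12 was not tested.

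The alpha-1-antitrypsin copies Serpina1a to Serpina1e, whose product blocks neutrophil elastase, were at 1.57 CPM or less in every library. Serpina1b, at 0.5602, 0.755 and 0.541 CPM in control, 1.14, 1.57 and 0.9802 in MC903 and 0.442, 0.516 and 0.153 with paeonol, was lower with paeonol than in MC903 (-1.72 ± 0.46, edgeR adjusted p = 0.0158). Serpina1e had 6, 0 and 7 estimated counts in control and 18, 25 and 27 in MC903, a ratio of 6.14 (95% counting interval 1.996 to 36.2), and was called higher (edgeR adjusted p = 0.03902). The copies share 18.0% to 64.6% of their 75-base stretches, so the values of single copies are uncertain. Defining hepatocyte markers were at or near 0: 6 matched markers together reached 1.54 to 2.87 CPM in control, 1.33 to 1.87 in MC903 and 1.49 to 2.19 with paeonol. Serpina10, the protein Z-dependent inhibitor, reached 0.481 CPM at most and was not called.

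**Figure D3:**
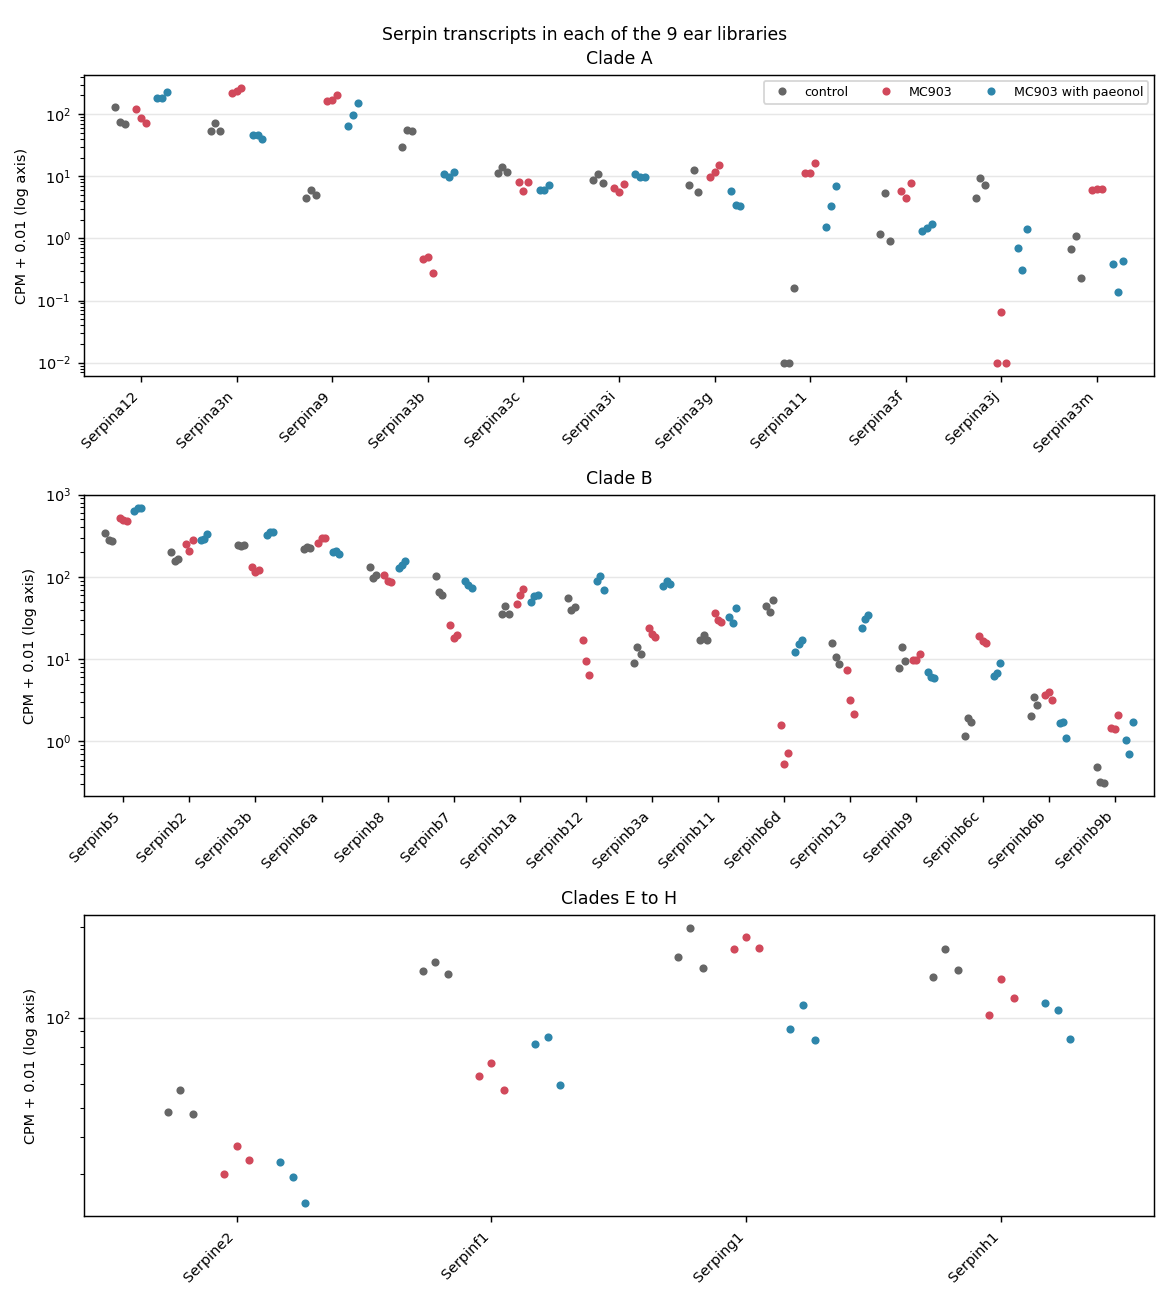
CPM (log axis, with 0.01 added) of 31 serpins at a mean of 1 CPM or more, 1 point per library, in 3 panels by clade. In clade A Serpina3b and Serpina3j drop in the MC903 libraries, and in clade B Serpinb6d, Serpinb12 and Serpinb7 do, while Serpina9 and Serpinb6c sit above all controls in every treated library.

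The clade B genes of chromosome 1 form a cluster expressed in stratified epithelia, and none of them was called lower with paeonol. In MC903 versus control 4 of the 11 were higher and 4 lower (23.0% and 23.8% of all genes). With paeonol versus MC903 8 were higher and 0 lower (15.3% and 14.3% of all genes). The median log2 change there was 1.49 against 0.0024 over all genes. Against control 8 were higher and 0 lower with paeonol (16.3% and 14.5% of all genes), with a median of 0.92. In both comparisons every edgeR log2 change of these 11 members was above 0, so 0 were lower at an unadjusted p under 0.05 too. DESeq2 called 8 and 10 higher and 0 lower. Keratinocyte markers moved too: 8 of 11 were higher with paeonol than in MC903 and 2 lower. Against control 3 of the 11 were higher and 4 lower in MC903, with a median log2 change of -0.17. With paeonol 9 were higher and 1 lower than in control. The summed level of the 11 markers was 19942 to 24034 CPM in control, 25381 to 32514 in MC903 and 46538 to 49598 with paeonol. None of them was at 0, and their part in the serpin changes was not tested. Stress keratins moved the other way, with 575 to 1267 CPM in control, 20242 to 21925 in MC903 and 4937 to 9018 with paeonol.

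Serpinb12, Serpinb13, Serpinb7 and Serpinb3b fell with MC903 and were higher again with paeonol. Serpinb12, an inhibitor of trypsin-like proteases, went from 55.2, 39.5 and 43.4 CPM in control to 17.01, 9.57 and 6.41 in MC903 and 90.2, 102 and 69.6 with paeonol. Its log2 changes were -2.07 ± 0.36 and 2.99 ± 0.37 (edgeR adjusted p = 0.00244 and 9.27e-04). All paeonol libraries lay above all control libraries, but that difference (0.92 ± 0.34) was not called. It was called without MC903 library 1 or 3 (log2 change 0.92, edgeR adjusted p = 0.0111 and 0.0292) and, among other settings, with DESeq2 (adjusted p = 0.039). Serpinb13 (headpin), an inhibitor of cathepsins L and K, was at 15.6, 10.5 and 8.67 CPM in control, 7.42, 3.198 and 2.14 in MC903 and 24.1, 30.7 and 34.2 with paeonol. It was higher with paeonol than with MC903 alone by 2.81 ± 0.46 (edgeR adjusted p = 0.00296). Its fall with MC903 (-1.45 ± 0.45) was not called without control library 1 or 2 or MC903 library 2 or 3 (log2 change -1.52 to -1.13, edgeR adjusted p between 0.0582 and 0.0992). Its rise over control with paeonol (1.36 ± 0.43) was not called without control library 2 or 3, MC903 library 2 or paeonol library 1, 2 or 3 (log2 change 1.19 to 1.5, edgeR adjusted p between 0.0653 and 0.149). With no filter both calls against control ended (edgeR adjusted p = 0.0682 and 0.105), as did the fall in the fit of the 2 groups (0.0517) and the rise with library totals (1.19, with an edgeR adjusted p of 0.0614).

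Serpinb7, whose loss in people causes a palmoplantar keratosis, was at 103, 64.6 and 59.9 CPM in control, 25.7, 18.2 and 19.4 in MC903 and 88.8, 80.4 and 73.7 with paeonol. The MC903 libraries lay below all others, and the paeonol libraries lay within the control range. The log2 changes were -1.85 ± 0.23 and 1.94 ± 0.23 (edgeR adjusted p = 2.48e-04 and 4.57e-04), and that between paeonol and control was 0.09 ± 0.22. Serpinb3b, a counterpart of the human squamous cell carcinoma antigens, had the smallest p of the family for paeonol versus MC903. It was at 242, 236 and 244 CPM in control, 133, 114 and 120.3 in MC903 and 321, 353 and 355 with paeonol, 3 groups without overlap. Its changes were -0.98 ± 0.07, 1.49 ± 0.07 (edgeR adjusted p = 6.94e-07) and, for paeonol versus control, 0.51 ± 0.07 (2.84e-04 as edgeR adjusted p).

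Serpinb3a, on the same chromosome, was higher in MC903 than in control and higher again with paeonol. It was at 9.07, 14.1 and 11.5 CPM in control, 23.9, 20.3 and 18.3 in MC903 and 77.5, 89.1 and 82.7 with paeonol, with no overlap between groups. The log2 changes were 0.85 ± 0.15 with MC903, 2.0 ± 0.15 for paeonol versus MC903 and 2.84 ± 0.16 for paeonol versus control (edgeR adjusted p = 8.29e-04, 1.08e-05 and 6.57e-06). Serpinb3c, with 11, 24 and 9 estimated counts in control and 9, 8 and 8 in MC903, was seen mainly with paeonol, where it had 220, 53 and 46 counts, most of them in library 1. Its ratio of paeonol to MC903 was 12.5 (95% counting interval 5.77 to 36.8). Serpinb3d reached 1.23 CPM at most and was not called in any comparison. Serpinb3b and Serpinb3c overlap in 35 exon bases and share 2.28% and 2.08% of their 75-base stretches with another serpin.

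Serpinb5, Serpinb2 and Serpinb11 were higher in both treated groups than in control. Serpinb5 (maspin) was at 339.9, 279 and 274 CPM in control, 513, 495 and 476 in MC903 and 634, 682 and 679.9 with paeonol, again without overlap. Its changes were 0.73 ± 0.08, 0.43 ± 0.08 and 1.16 ± 0.08 in the 3 comparisons, all called. Serpinb2 (plasminogen activator inhibitor 2), an inhibitor of urokinase, was at 203, 157 and 167 CPM in control, 249.8, 209 and 279.9 in MC903 and 280, 285 and 335 with paeonol. It rose with MC903 by 0.49 ± 0.13 (edgeR adjusted p = 0.00913), a call that ended under scaling by library totals (0.29, with an edgeR adjusted p of 0.0629). With paeonol it stood 0.77 ± 0.13 above control and was not called against MC903. Its exons overlap those of Serpinb10, a polymorphic pseudogene in GENCODE, by 291 bases. Serpinb10, which is no member here, changed by -0.7 ± 0.09, 0.56 ± 0.09 and -0.14 ± 0.09 in the 3 comparisons, the last not called. Serpinb11 was at 17.2, 19.9 and 17.1 CPM in control, 36.3, 29.8 and 28.2 in MC903 and 32.3, 27.7 and 41.99 with paeonol, 0.8 ± 0.15 above control in MC903 and 0.91 ± 0.15 above it with paeonol. Serpinb8, an inhibitor of furin, was at 130.3, 97.6 and 106 CPM in control, 105, 89.1 and 87.4 in MC903 and 129.5, 139 and 155 with paeonol and was higher with paeonol than in MC903 (0.59 ± 0.11, edgeR adjusted p = 0.00282). Its difference between paeonol and control (0.35 ± 0.11) was not called without control library 2 or 3, MC903 library 2 or paeonol library 2 or 3 (log2 change 0.26 to 0.36, edgeR adjusted p between 0.0551 and 0.143). Its change with MC903 (-0.25 ± 0.11) was called without control library 2 or MC903 library 1 (log2 change -0.33, edgeR adjusted p = 0.03999 and 0.04598). Library totals in place of TMM ended the call of paeonol versus control (0.18, with an edgeR adjusted p of 0.222), and the change with MC903 was called (-0.44, edgeR adjusted p = 0.00552).

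**Figure D4:**
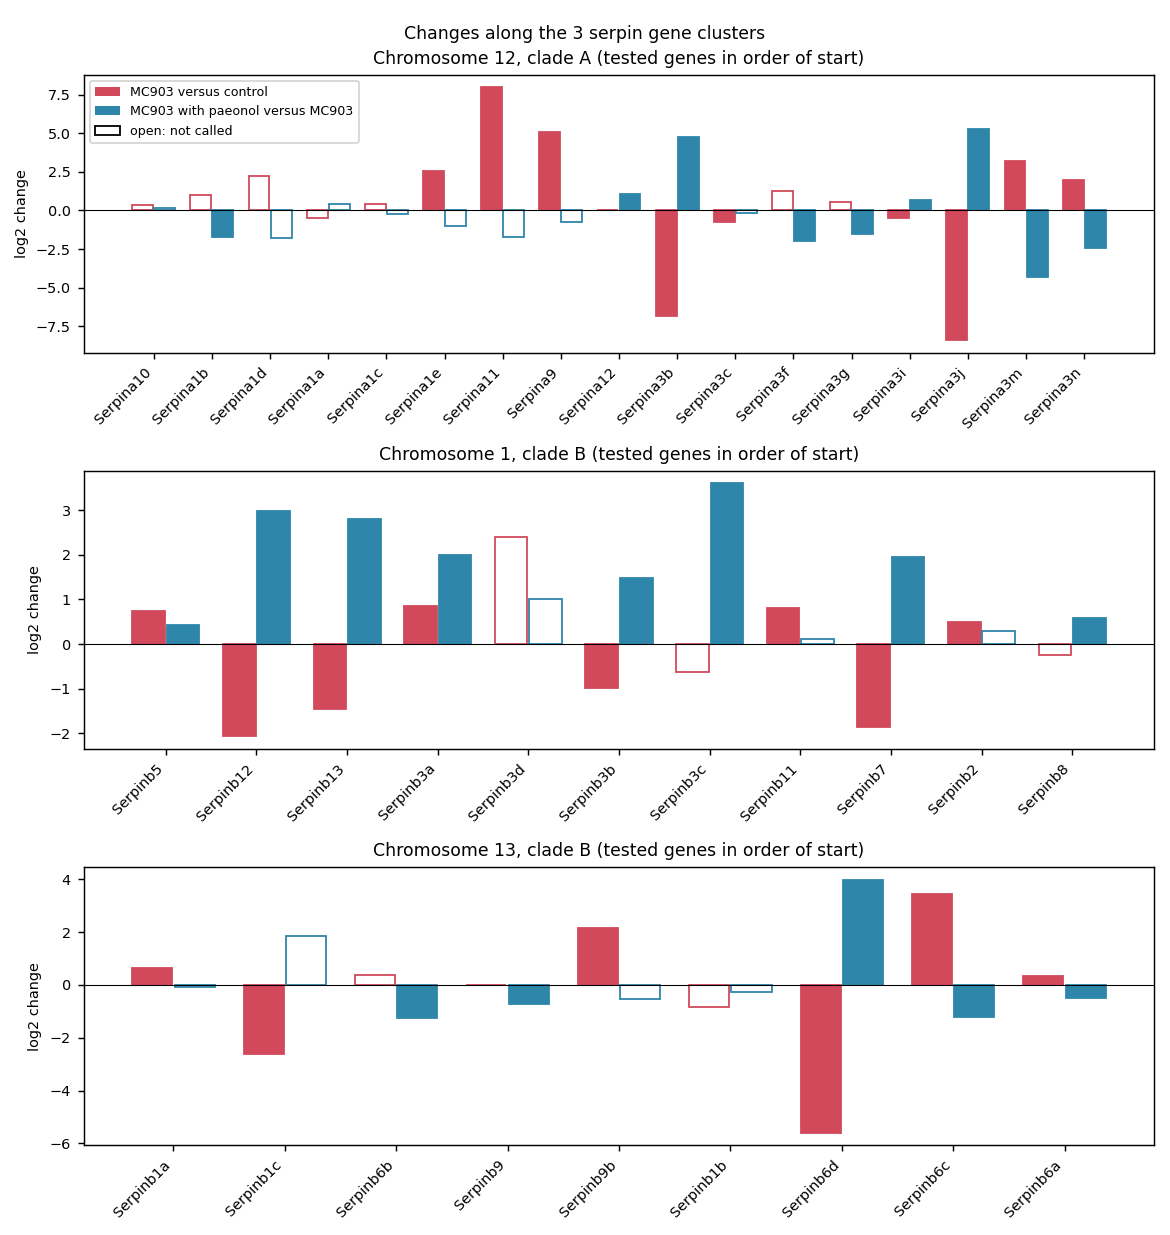
Log2 change (vertical axis) of the tested serpins in their order along the clusters of chromosomes 12, 1 and 13, for MC903 versus control (red) and MC903 with paeonol versus MC903 (blue); open bars were not called. On chromosome 1 every blue bar points up, while on chromosomes 12 and 13 some neighbours point opposite ways.

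The clade B genes of chromosome 13 split as the Serpina3 copies did. Of 15 members 9 were tested. In MC903 versus control 4 were higher and 2 lower, and with paeonol versus MC903 1 was higher and 4 lower. Of all genes, 23.0% were higher and 23.8% lower in the former, and 15.3% and 14.3% in the latter. Serpinb6d and Serpinb6c, neighbours among the tested genes, moved in opposite directions. Serpinb6d (chromosome 13, 33661405 to 33671581) was at 44.5, 37.1 and 52.6 CPM in control, 1.59, 0.518 and 0.708 in MC903 and 12.2, 15.1 and 16.9 with paeonol. The paeonol libraries lay between the other groups, 3.98 ± 0.35 above MC903 and -1.6 ± 0.29 from control (edgeR adjusted p = 7.63e-05 and 0.00334). Serpinb6c (chromosome 13, 33879816 to 33905708) was at 1.14, 1.92 and 1.72 CPM in control, 18.9, 16.8 and 15.8 in MC903 and 6.25, 6.86 and 8.896 with paeonol. Here too paeonol stood between, with changes of 3.43 ± 0.22, -1.23 ± 0.2 and 2.2 ± 0.21 in the 3 comparisons, all called (edgeR adjusted p = 6.36e-07, 7.5e-04 and 4.39e-05). Their transcripts share 0.3799% (of Serpinb6c) and 0.345% (of Serpinb6d) of their 75-base stretches.

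Serpinb6a, a widely expressed inhibitor of cathepsin G, changed by small amounts. It was at 216, 229 and 222 CPM in control, 256, 294 and 298 in MC903 and 199.7, 206 and 191 with paeonol. It was higher in MC903 than in control (0.35 ± 0.07) and lower with paeonol than in MC903 (-0.51 ± 0.07). Under scaling by library totals the first call ended (0.16, with an edgeR adjusted p of 0.0972), and paeonol versus control was called (-0.16 as scaled here, and -0.32 under that scaling, edgeR adjusted p = 0.00598). Its exons overlap genes on the opposite strand, Nqo2 by 762 bases and Ripk1 by 241. Serpinb9, which protects lymphocytes and antigen-presenting cells from granzyme B, was at 7.76, 13.9 and 9.38 CPM in control, 9.69, 9.87 and 11.4 in MC903 and 6.99, 6.03 and 5.87 with paeonol. It was lower with paeonol than in MC903 (-0.71 ± 0.2) and than in control (-0.72 ± 0.2), with an edgeR adjusted p of 0.0189 and 0.0179. Those calls were lost without MC903 library 3 or paeonol library 2 or 3 (log2 change -0.68 to -0.63, edgeR adjusted p between 0.0555 and 0.0705) and without control library 2 or paeonol library 2 or 3 (log2 change -0.69 to -0.44, edgeR adjusted p between 0.06003 and 0.0771). Serpinb6b, an inhibitor of granzyme A, was at 2.03, 3.43 and 2.79 CPM in control, 3.64, 3.99 and 3.16 in MC903 and 1.66, 1.73 and 1.09 with paeonol, and was lower with paeonol than in MC903 (-1.26 ± 0.27, edgeR adjusted p = 0.00415). Its difference between paeonol and control (-0.88 ± 0.27) was not called without control library 2 or 3 or paeonol library 3 (log2 change -0.87 to -0.69, edgeR adjusted p between 0.0683 and 0.1105).

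Serpinb1a, which inhibits neutrophil elastase, cathepsin G and proteinase 3, was at 35.1, 44.8 and 35.1 CPM in control, 46.9, 60.8 and 71.1 in MC903 and 49.6, 58.9 and 60.1 with paeonol. It rose with MC903 (0.64 ± 0.15, edgeR adjusted p = 0.00685). The paeonol group differed from control by 0.55 ± 0.15, which was not called without control library 1 or 3 or paeonol library 2 or 3 (log2 change 0.49 to 0.52, edgeR adjusted p between 0.0723 and 0.0824) or under scaling by library totals (0.39, with an edgeR adjusted p of 0.0791). Serpinb9b, at 0.4801, 0.312 and 0.304 CPM in control, 1.43, 1.42 and 2.07 in MC903 and 1.02, 0.682 and 1.71 with paeonol, was 2.16 ± 0.41 above control in MC903 and 1.63 ± 0.41 above it with paeonol, the latter not called without paeonol library 3 (log2 change 1.22, edgeR adjusted p = 0.0507). Serpinb1c, at 1.57 CPM or less in all libraries, was lower in MC903 than in control, a ratio of control to MC903 of 6.04 (95% counting interval 2.8 to 18.9). Serpinb1b, at 0.492 CPM or less, was not called.

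Macrophage and monocyte markers were lower with paeonol than with MC903 alone, as were 10 of the 46 serpins tested (21.7%, against 14.3% of all genes). Among these 10, Serpina3n, Serpina3m, Serpinb6c and Serpinb6a were also called higher in MC903 than in control, where most of the markers were. Serpina3g, Serpina3f, Serpinb9, Serpinb6b, Serpina1b and Serping1 were not. The 7 markers summed to 440.5 to 474 CPM in control, 899.7 to 1005 in MC903 and 268 to 412 with paeonol. Of them 6 were higher in MC903 than in control, 6 were lower with paeonol than in MC903, and none was at 0. T and NK cell markers summed to 33.1 to 43.1 CPM in control, 34.1 to 53.7 in MC903 and 17.97 to 31.2 with paeonol. These 8 markers were split, with 4 higher and 3 lower in MC903 than in control. Between paeonol and MC903, 1 of the 8 was higher and 3 were lower. Neutrophil markers summed to 49.6 to 178 CPM in control, 162 to 231 in MC903 and 144 to 160.3 with paeonol, but the defining granule and surface genes of that list (Mpo, Ngp, Camp and Ly6g) had a mean under 0.5 CPM in every group. The part of these cells in the values of the 10 serpins was not tested.

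The clades C to I hold inhibitors of clotting, fibrinolysis and complement and the non-inhibitory Serpinf1 and Serpinh1. Of 11 members 9 were tested, and no rise was called in any comparison: 0 higher and 2 lower with MC903, 0 and 1 for paeonol versus MC903, and 0 and 4 for paeonol versus control. The shares of all genes called higher and lower were 23.0% and 23.8%, 15.3% and 14.3%, and 16.3% and 14.5% in this order. Over the 8 described here, the counts of higher members at an unadjusted edgeR p under 0.05 were 0, 0 and 1 in this order, and DESeq2 called 0, 0 and 1 higher after adjustment. Serpinf1 (pigment epithelium-derived factor), a secreted regulator of vessel growth and fat metabolism, fell with MC903, from 143, 154 and 139.8 CPM to 63.7, 70.7 and 57.1 CPM, and was at 81.9, 86.4 and 59.8 CPM with paeonol. Its change from control was -1.19 ± 0.13 (edgeR adjusted p = 3.54e-05) in MC903 and -0.94 ± 0.13 with paeonol (4.89e-04 as edgeR adjusted p). The difference between paeonol and MC903 (0.25 ± 0.13) was not called, except without paeonol library 3 (log2 change 0.4, edgeR adjusted p = 0.00651). Serpine2 (protease nexin 1), an inhibitor of thrombin and urokinase, was also lower in both treated groups, at 48.4, 57.1 and 47.7 CPM in control, 29.99, 37.2 and 33.5 in MC903 and 32.99, 29.4 and 24.1 with paeonol, -0.6 ± 0.12 in MC903 and -0.82 ± 0.12 with paeonol against control. Serpinh1 (HSP47), the chaperone of newly made collagen, was at 136, 169.7 and 144 CPM in control, 102, 135 and 116 in MC903 and 112, 106 and 84.7 with paeonol. It was lower than control with paeonol (-0.57 ± 0.13, edgeR adjusted p = 0.00872). Its difference in MC903 (-0.35 ± 0.13, edgeR adjusted p = 0.05101) was at the threshold and was called without control library 1, MC903 library 2 or paeonol library 3 (log2 change -0.46 to -0.35, edgeR adjusted p between 0.0199 and 0.04701) and, among other settings, with DESeq2 (adjusted p = 0.0276). Of 7 fibroblast markers, 5 were lower and 1 higher in MC903 than in control, and 5 were lower and 0 higher with paeonol than in control. Between paeonol and MC903, 3 were higher and 1 lower. The markers summed to 8379 to 9155 CPM in control, 2764 to 3894 in MC903 and 4097 to 5161 with paeonol, and their part was not tested.

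Serping1 (C1 inhibitor), which controls the start of the complement cascade and plasma kallikrein, was lower in the paeonol group than in both others. It was at 159, 199 and 146 CPM in control and 169, 186 and 170.2 in MC903, which overlapped, and at 91.7, 109.9 and 84.2 CPM with paeonol, below all other libraries. The log2 change was -0.88 ± 0.12 versus MC903 and -0.82 ± 0.12 versus control (edgeR adjusted p = 4.23e-04 and 7.15e-04). Endothelial markers showed a like pattern, with 6 of 6 lower in both of these comparisons and sums of 243 to 282 CPM in control, 269.9 to 299 in MC903 and 133 to 195 with paeonol; their part was not tested. The antithrombin gene Serpinc1, the heparin cofactor gene Serpind1, the antiplasmin gene Serpinf2 and the neuroserpin gene Serpini1 were at 1.398 CPM or less in every library, and none was called.

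Serpins act on proteases, so 4 lists of possible targets and 1 of other inhibitors were read in the same fit. The epidermal and membrane serine proteases had 14 higher and 1 lower of 23 tested with MC903, with a median log2 change of 1.47. They had 6 higher and 3 lower of 23 tested with paeonol versus MC903 (median 0.07). With paeonol versus control they had 18 higher and 0 lower of 23 tested (median 1.13), and 0 were lower at an unadjusted p under 0.05 by edgeR or by DESeq2. Klk8, a desquamation kallikrein, was 2.71 ± 0.1 above control in MC903 and -0.93 ± 0.1 with paeonol versus MC903 (edgeR adjusted p = 6.63e-08 and 4.2e-05). Klk5, which starts the kallikrein cascade, was higher with paeonol than in MC903 (1.69 ± 0.22). The leukocyte and mast cell proteases had 6 higher and 2 lower of 13 tested with MC903 and 1 higher and 6 lower of 13 tested with paeonol versus MC903, with medians of 0.93 and -1.36. Against control the paeonol group had 0 higher and 1 lower of 13 tested (median -0.25); at an unadjusted p under 0.05, 0 were higher by edgeR and 1 by DESeq2. Gzmb, granzyme B, the target of Serpinb9 and Serpina3n, was 2.75 ± 0.56 in MC903 versus control and -3.76 ± 0.6 with paeonol versus MC903 (edgeR adjusted p = 0.00403 and 0.00206).

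The cysteine proteases, which include the cathepsins that clade B members can inhibit, had 10 higher and 1 lower of 13 tested with MC903, 1 higher and 7 lower of 13 tested with paeonol versus MC903 and 4 higher and 1 lower of 13 tested with paeonol versus control. Their medians were 0.7, -0.4 and -0.13. Ctss, cathepsin S of antigen-presenting cells, was -1.32 ± 0.16 with paeonol versus MC903, and Casp14, a caspase of cornifying cells, was 2.24 ± 0.15 in MC903 and 2.13 ± 0.14 with paeonol against control. The plasminogen, clotting and complement proteases had 4 higher and 3 lower of 13 tested, 2 higher and 6 lower of 13 tested and 2 higher and 4 lower of 13 tested in the same order, with medians of 0.18, -0.43 and -0.24. Plau, urokinase and the target of Serpinb2, was -0.3 ± 0.09 in MC903 versus control and 0.48 ± 0.09 with paeonol versus MC903 (edgeR adjusted p = 0.0173 and 0.00207). The other protease inhibitors had 17 higher and 9 lower of 30 tested, 10 higher and 10 lower of 30 tested and 14 higher and 6 lower of 30 tested, with medians of 1.26, -0.61 and 0.64. Spink5, the kallikrein inhibitor lost in Netherton syndrome, was 1.53 ± 0.15 above control with paeonol (edgeR adjusted p = 1.14e-04). Wfdc21, of the whey acidic protein family, was -4.11 ± 0.27 in MC903 and 4.0 ± 0.27 with paeonol versus MC903. The shares of all genes called were those given above for each comparison.

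Markers of skin and ear were found in all groups. Keratinocyte, fibroblast and skeletal muscle genes were present throughout. Cartilage markers were present too, apart from Matn1, which was at 0 in all 9 libraries. Skeletal muscle markers summed to 2776 to 4377 CPM in control, 988 to 1326 in MC903 and 1351 to 1933 with paeonol. Sebaceous gland markers summed to 5401 to 7157 CPM in control, 650.3 to 1289.9 in MC903 and 2954 to 4029 with paeonol, and cartilage markers to 325 to 400.4 CPM in control, 152 to 174 in MC903 and 204 to 266 with paeonol. Each of these 3 sums was highest in control and lowest in MC903, without overlap between groups. The part of these tissues in the serpin changes was not tested.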

How the data were processed

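Poly(A)-selected RNA of 9 ear libraries (3 control, 3 MC903, 3 MC903 with paeonol) was sequenced after dUTP marking of the second strand, per the labels' protocols. The authors deposited 1 matrix of estimated counts per Ensembl gene. The submitters' processing notes name cutadapt, HISAT2 2.0.4, StringTie 1.3.4d and the build GRCm38. The annotation, the strand setting and the step from alignments to counts: not given in the sources used here. Low values pile up at multiples of 4, so 4 counts were taken as 1 fragment in ratio intervals. Counts were analysed as deposited, and 0 value columns were left unused.

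Symbols, exon lengths and gene types came from GENCODE M21 (GRCm38). The main fit was edgeR 4.0.16 (R 4.3.3): TMM scaling, filterByExpr (minimum count 10, total 15), robust quasi-likelihood tests with 1 coefficient per group over all 9 libraries, two-sided, with Benjamini-Hochberg adjustment over 21925 genes and a threshold of 0.05. Standard errors of log2 changes were derived from the change and its F value. The test was checked on simulated data. Members with a mean of at least 1 CPM over all libraries are given with values per library, except 1 that is not reported here and stays in the family counts, sums and fits. Of each protease or inhibitor list, genes were named from the 3 with the smallest p among called genes at 1 CPM or more in a comparison, and the text gives some of these. Promoter windows came from RefSeq (GRCm38.p6) and were aligned with Biopython 1.88. DESeq2 1.42.0, other scalings, filters, single libraries left out, counts divided by 4 and a replicate block were alternatives. Members and lists were chosen with earlier results of these data known.

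Libraries held 54264605 to 57745225 counts in total. For members with few counts, ratios carry 95% counting intervals, and a count of 0 in a library allows up to 12 counts (3 fragments). Reads carry no molecular identifiers in the sources used here, so intervals cover counting error only. Pairs of libraries of 1 group differed by a chi-square of 6.51 to 14.4 per degree of freedom, and none was taken for a duplicate.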

Additional observations from a re-analysis of the deposited data

How the results depend on the processing

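Of 93 changes of 31 serpins at 1 CPM or more, 69 were called, 53 of these under every alternative run, and 16 lost the call under at least 1. None of the 69 changed direction, and 10 others were called under at least 1 alternative. Numbers of called members moved by more than 1.5 times once: without library 3 of the paeonol group, 9 members were higher with paeonol than in control. Leaving out each library in turn gave 9 to 15 there and 8 to 13 lower. The same gave 12 to 15 higher and 11 to 13 lower for MC903 versus control, and 12 to 13 higher and 8 to 11 lower for paeonol versus MC903. With library totals in place of TMM, 2155 genes were called higher and 5354 lower with paeonol than in control. With the longest transcript as length, the family sum was 1997 TPM in MC903 and 2578 TPM with paeonol.

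The labels do not say whether replicate numbers pair the samples. Correlations of deviations ran from -0.021 to 0.104 for the same number and from -0.102 to 0.111 for others. With 3 libraries per group these values cannot exclude a pairing. With the number as a block, members called higher and lower were 13 and 13 for MC903 versus control, 13 and 12 for paeonol versus MC903, and 16 and 11 for paeonol versus control. The block ended the call of Serpina3g in paeonol versus control (-0.96, edgeR adjusted p = 0.0967). It brought calls for Serpina9 (-0.83, 0.0366) and Serpina11 (-1.99, 0.0209) in paeonol versus MC903, Serpinb12 in paeonol versus control (0.92, 0.0364) and Serpinh1 in MC903 versus control (-0.35, 0.0231), each with its log2 change and edgeR adjusted p.

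Changes that turned direction were uncalled throughout. With library totals, MC903 versus control was -0.17 for Serpina12 and -0.13 for Serping1, and paeonol versus control was -0.0063 for Serpina3i and -0.069 for Serpinb7. Serpinb9 in MC903 versus control was 0.0039 with counts divided by 4, 0.0071 with DESeq2 or its size factors, 0.0077 with the filter at 1 CPM and 0.0198 with the replicate block. Leaving out single libraries, MC903 versus control ran from -0.22 to 0.355 for Serpina12, from -0.0298 to 0.198 for Serping1 and from -0.174 to 0.27 for Serpinb9. Paeonol versus control ran from -1.14 to 0.498 for Serpina3f and from -0.0534 to 0.38 for Serpinb7. Paeonol versus MC903 ran from -0.0674 to 0.241 for Serpinb11 and from -0.231 to 0.0607 for Serpinb1a. The cause was not tested.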
